A study of Mus musculus with 61 samples.

Results

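The genes of voltage-gated sodium channels, voltage-gated calcium channels and HCN channels were described across sorted retinal cells of mice that do or do not develop glaucoma. Members were the genes whose symbol was Scn, a digit and then a or b, or began with Cacna, Cacnb, Cacng or Hcn and a digit. This gave 37 of the 15149 genes in the table. They were 8 sodium channel pore (alpha) subunits, 2 sodium channel beta subunits, 10 calcium channel pore (alpha1) subunits, 4 alpha2delta subunits, 4 calcium channel beta subunits, 5 gamma subunits and 4 HCN channels.

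RNA was sequenced from Thy1.2-positive cells sorted away from cells with Cd11b, Cd11c, Cd34, Cd45.2 or GFAP. The labels name these cells retinal ganglion cells, which send the axons of the optic nerve, and state that no axon loss was seen in the eyes used. DBA/2J mice carry a mutant Gpnmb allele and develop raised eye pressure and glaucoma with age. D2-Gpnmb+ mice are DBA/2J mice with a working Gpnmb gene, so both strains share the mutant Tyrp1 allele, and they serve as controls without glaucoma. The 61 libraries were 7 of DBA/2J at 9 months given 500 mg/kg/d of the vitamin nicotinamide, from which cells make NAD, 25 of DBA/2J at 9 months, 10 of DBA/2J at 4 months, 9 of D2-Gpnmb+ at 9 months and 10 of D2-Gpnmb+ at 4 months. Except for the nicotinamide group, the labels describe each as a water control. Whether each library is a different animal is not stated, and the p values therefore speak only of the spread from library to library, which may be technical.

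Voltage-gated sodium channels carry the rising phase of the action potential: the alpha subunit forms the pore, and beta subunits adjust its gating and place in the membrane. Voltage-gated calcium channels couple depolarisation to transmitter release and other calcium signals, and their alpha1 pore works with a cytoplasmic beta and an extracellular alpha2delta subunit. HCN channels open on hyperpolarisation and pace or damp electrical activity. In the retina, ganglion and amacrine cells fire sodium spikes, while photoreceptors release glutamate continuously through an L-type calcium channel formed by Cacna1f, Cacna2d4 and Cacnb2.

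Recovered reads per library ran from 5133114 to 19501444, and every channel gene had a read in at least 47 of the 61 libraries. Levels are given as the authors' normalised read count (reads divided by a library size factor), errors of means as SD, and errors of log2 fold changes as SE. Of 15 ganglion cell markers, 12 were in the table, and their summed level was 35.5 to 173 across libraries, against 606 to 67220.0 for 10 rod markers and 2613 to 11250.0 for 10 bipolar cell markers. The ganglion cell genes Pou4f1 and Slc17a6 were at 0 in 21 and 24 libraries. No other ganglion cell marker was at 0 in more than 7 libraries (Sncg and Nefm), and Nefl was at 0 in 1. Markers of the labelled cell type were thus low in sum beside those of rods and bipolar cells, and Pou4f1 and Slc17a6 were undetected in part of the libraries. The columns of the table fall into 3 stretches of 10, 18 and 33 libraries, whose meaning the labels do not give. All nicotinamide and all 4-month libraries lie in the third, with only 3 of the 25 DBA/2J libraries and 3 of the 9 D2-Gpnmb+ libraries of 9 months. Differences of age and nicotinamide are therefore given over all libraries and, for genes called, again within the third stretch, whose libraries are also part of the first value. In such bulk samples, fewer cells of a type and less RNA per cell cannot be told apart.

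Set against exon length, high levels were those of photoreceptor channel genes and a few others: Cacna2d4 (47.4 ± 10.7 normalised reads per kb of exon, SD over 61 libraries), Cacna2d3 (34.6 ± 15.5), Cacng7 (23.6 ± 8.901) and Cacna1f (21.98 ± 5.94). Cacnb2 (10.7 ± 3.26) was below Cacna1f in all 61 libraries. The highest sodium channel gene was Scn8a (7.52 ± 1.53), known from axon initial segments and nodes of Ranvier. Low levels were those of Scn9a (0.261 ± 0.221), known from sensory neurons, Cacna1c (0.297 ± 0.169) and Cacna1e (0.341 ± 0.358). Exon length was the union of all annotated exons of a gene, 21.19 kb for Cacna1c and 25.23 kb for Cacna1e. Before division by length their means were 6.29 and 8.61, above Hcn2 (1.45), Cacng2 (3.67) and Hcn4 (4.06), which were higher per kb. Neighbours in the order per kb often could not be separated: Cacng7 was above Cacna1f in 35 of 61 libraries, Scn8a above Cacna1s in 30 and Scn3a above Scn1a in 30. Cacna2d4 was above Cacna2d3 in 56.

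**Figure D1:**
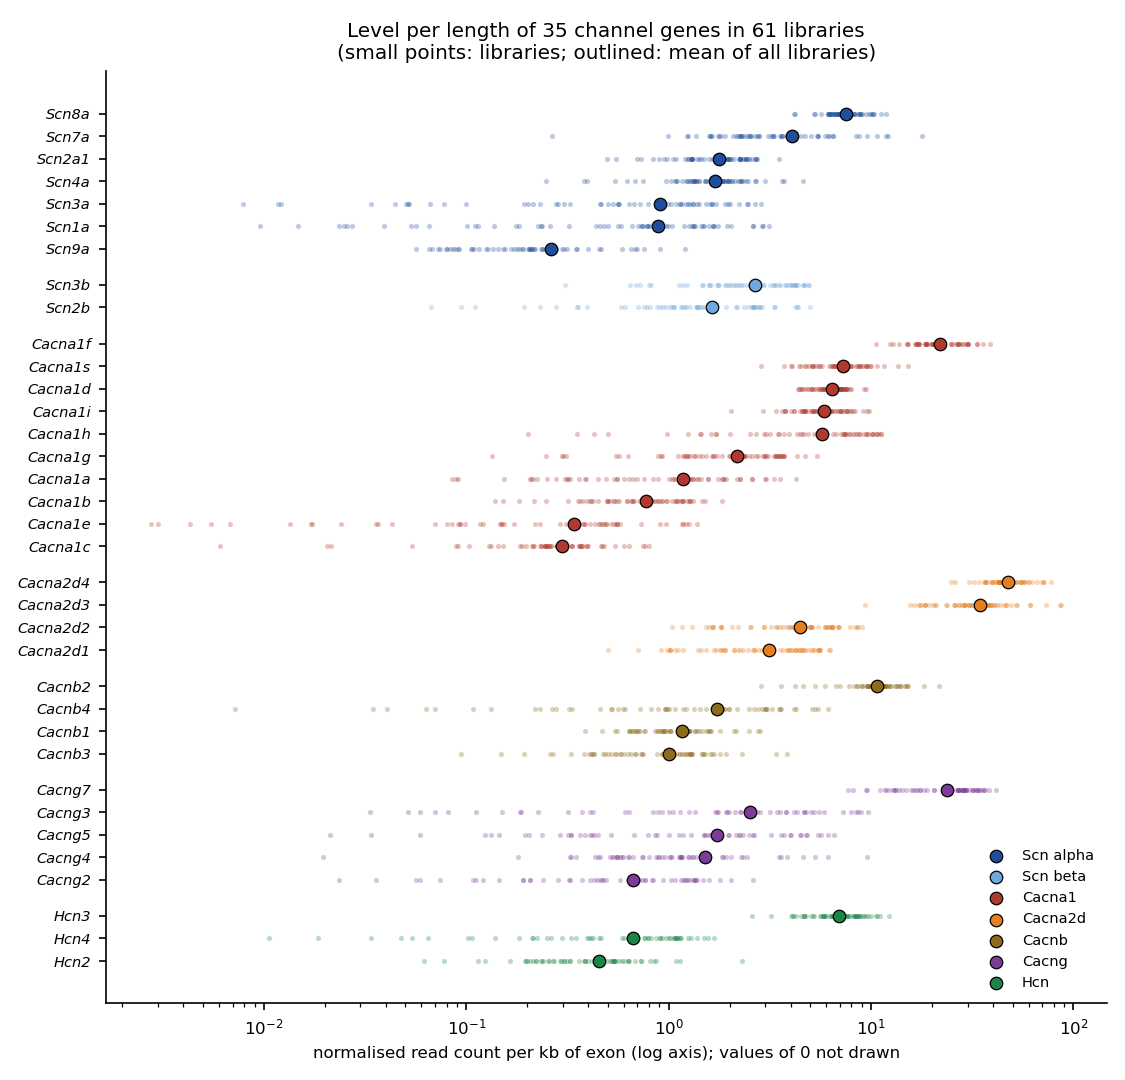
Normalised read count per kb of exon on a log axis for 35 of the channel genes, grouped by subunit class. Small points are the 61 libraries and outlined points the means, which run from 0.261 for Scn9a to 47.4 for Cacna2d4.

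Of the 37 channel genes, 21 had a normalised count of at least 1 in every library, Scn8a, Cacna1d, Cacna1f and Cacna2d4 among them. Scn1a and Scn3a were below 1 in 11 libraries each, Cacng5 in 13, Cacna1e in 14, Cacng2 and Cacng3 in 15 each and Hcn2 in 24. In DBA/2J, 17 channel genes fell and 2 rose at 9 months relative to 4 months, of 36 tested by limma, where 13.2% of all genes fell and 9.25% rose. Of the 17, 11 were below 1 in some library and 6 never were. With nicotinamide at 9 months, 16 rose and 1 fell relative to DBA/2J on water, of 36 tested, where 9.78% of all genes rose and 5.34% fell. No channel gene passed in the strain comparison at 9 months over all libraries or in D2-Gpnmb+ with age by limma (edgeR called 4 in the second), and 1 passed in each of 2 further comparisons, between strains at 4 months and, for Cacna2d3, between nicotinamide at 9 months and water at 4 months. None of the age and nicotinamide calls was made within the third stretch.

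Promoters of 27 of the 37 channel genes had an entry, 38 windows in all, in a table of the 250 bases before each start from RefSeq (build GRCm38.p6). The letters GGGCGG, known as a binding sequence of Sp1, were in 17 of the 38 windows (44.74%) and in 32.74% of all 32851 windows, searched on both strands. TAATCC, a sequence of the photoreceptor factor Crx, was in 2 of the 38 windows (5.26%) and 6.25% of all. TTCAGCACC, part of the site of the repressor REST, was in none of the 38 and in 0.3% of all. The windows of 3 genes that fell with age and rose with nicotinamide and of the photoreceptor gene Cacna1f, chosen to set genes of both directions side by side, are printed from 5′ to 3′ of the gene's own strand. Capitals mark GGGCGG or its reverse complement CCGCCC, and matches to GGGCGG can overlap one another.
Cacna2d1 chr5:15934441-15934690, plus strand: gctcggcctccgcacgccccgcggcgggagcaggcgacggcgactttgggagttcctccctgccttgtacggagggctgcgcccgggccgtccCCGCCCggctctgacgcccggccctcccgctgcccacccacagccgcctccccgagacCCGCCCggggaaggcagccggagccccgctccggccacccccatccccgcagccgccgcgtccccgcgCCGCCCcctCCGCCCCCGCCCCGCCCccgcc
Cacng5 chr11:107915056-107915305, minus strand: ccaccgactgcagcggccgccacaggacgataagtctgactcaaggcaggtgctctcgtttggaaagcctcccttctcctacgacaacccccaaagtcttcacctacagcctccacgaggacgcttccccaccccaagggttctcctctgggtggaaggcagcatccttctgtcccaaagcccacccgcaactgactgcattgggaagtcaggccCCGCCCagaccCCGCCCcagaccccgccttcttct
Scn1a chr2:66440838-66441087, minus strand: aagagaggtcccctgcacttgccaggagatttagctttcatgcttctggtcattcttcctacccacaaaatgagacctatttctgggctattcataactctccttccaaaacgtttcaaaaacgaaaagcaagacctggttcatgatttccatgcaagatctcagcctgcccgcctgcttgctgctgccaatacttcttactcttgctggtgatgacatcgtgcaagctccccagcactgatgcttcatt
Cacna1f chrX:7606853-7607102, plus strand: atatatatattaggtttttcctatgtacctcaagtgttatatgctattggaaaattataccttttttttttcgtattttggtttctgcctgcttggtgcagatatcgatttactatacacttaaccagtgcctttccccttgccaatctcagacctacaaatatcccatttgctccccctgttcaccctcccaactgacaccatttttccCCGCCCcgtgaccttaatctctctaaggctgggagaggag
The window of Cacna2d1 held 6 matches to GGGCGG, the one of Cacng5 printed here 2, that of Cacna1f 1 and that of Scn1a none. A second window of Cacng5 in the table, not printed, held none.

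Ageing of DBA/2J asked how channel transcripts differ between 9 months and 4 months. Of 36 channel genes tested, 17 fell and 2 rose (limma, adjusted p under 0.05 with Benjamini-Hochberg adjustment over all genes), where 22.4% of 13587 genes passed, 13.2% lower and 9.25% higher. The median log2 fold change was −0.65 over the channel genes and 0.02 over all genes. In the third stretch, 3 libraries at 9 months against 10 at 4 months, none of 37 passed by limma and 5 had an unadjusted p under 0.05, where 0.263% of all genes passed and 10.7% had such an unadjusted p. All 17 genes that fell were also negative there, with a median of −0.51 against −1.32 over all libraries. Of all 37 channel genes, only 5 were positive there. The 17 were called with these libraries included, so their signs there are not independent. Nicotinamide at 9 months was set against the same 25 DBA/2J libraries on water. Here 16 of 36 channel genes rose and 1 fell, where 15.1% of 13925 genes passed, 9.78% higher and 5.34% lower, with a median of 0.63 over the channel genes and −0.03 over all. After rescaling to column totals 14 channel genes rose and none fell, and 9.08% of all genes rose and 2.47% fell. Restricted to the third stretch, none of 36 passed by limma and 14 had an unadjusted p under 0.05, where 0.00749% and 16.8% of all genes did. All 16 genes that rose were also positive there, with a median of 0.97 against 1.78. Of all 36 channel genes, 28 were positive there, and these libraries are again part of the first value. Both comparisons use the same 25 libraries, so opposite signs in them are not independent. With 1 library left out, the age call of Cacng3 was lost without 4-month library 1, 2, 3 or 4, and the nicotinamide call of Cacna2d4 without nicotinamide library 2, 3, 4, 5 or 7, of Cacna1h without 1, 3, 4 or 5, of Scn2b and Scn2a1 without 7 and of Cacna1g without 3. Apart from Hcn4, every other call of a channel gene in these comparisons held in all fits. By edgeR the age calls of Cacna1c, Cacng2, Cacng3 and Hcn4 missed the threshold (adjusted p 0.0513 to 0.251), as did the nicotinamide calls of Scn2b, Cacna1h, Cacng3 and Hcn4 (0.058 to 0.176).

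**Figure D2:**
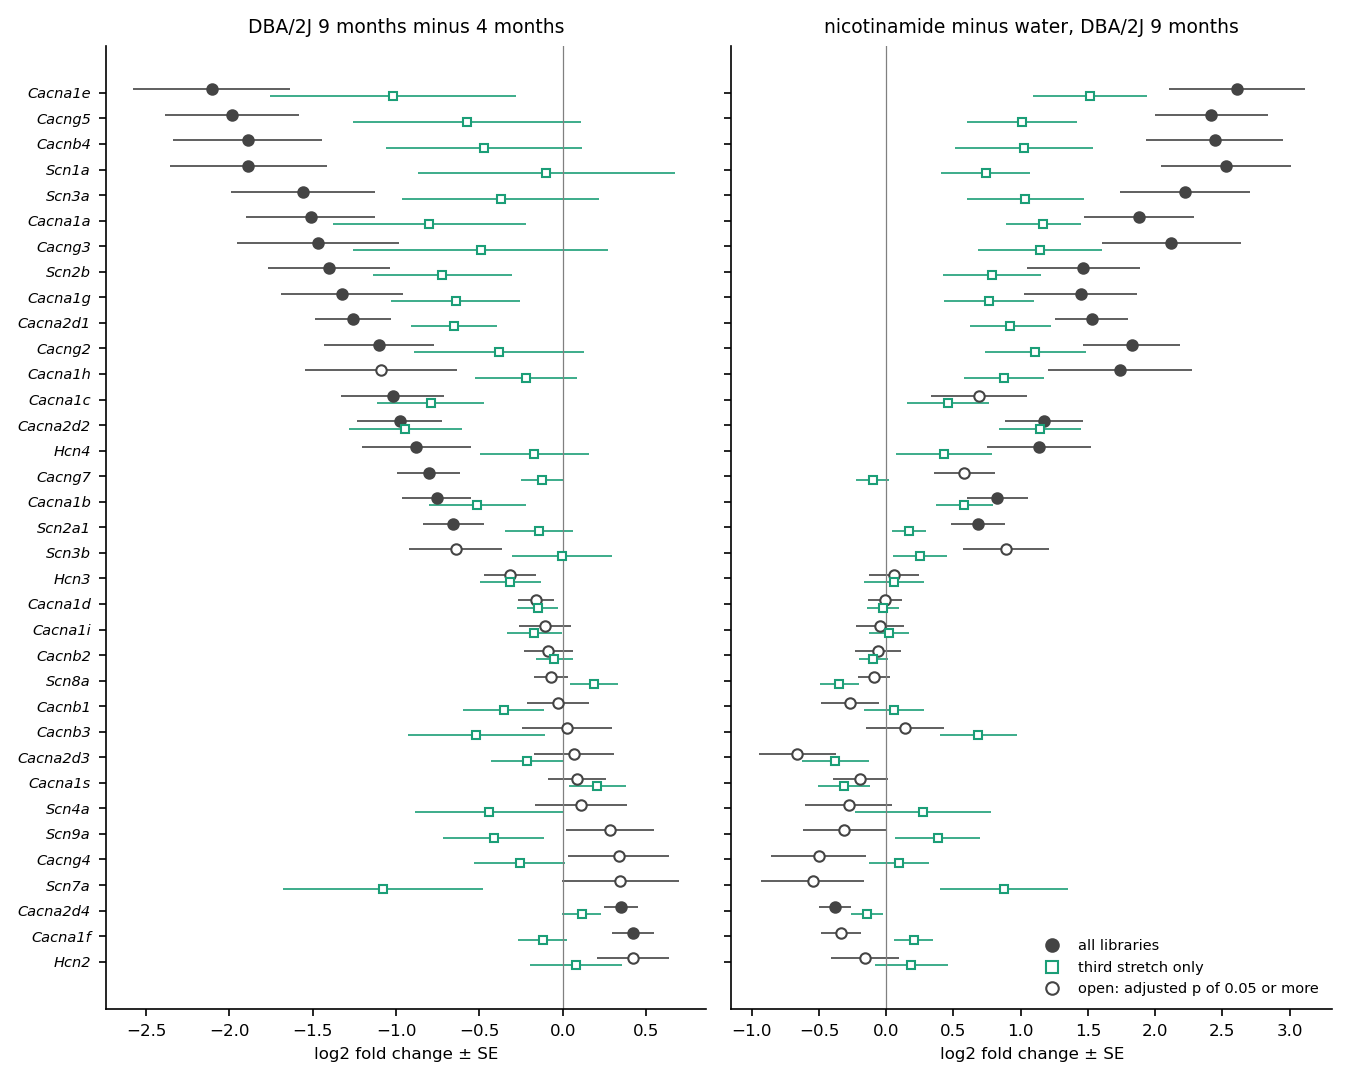
Log2 fold change with SE of each tested channel gene for DBA/2J at 9 against 4 months (left) and nicotinamide against water at 9 months (right), over all libraries (circles) and within the third stretch (squares). Filled symbols have an adjusted p under 0.05 in limma, and all squares are open.

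Markers of other cells were counted in the same comparisons. Of all genes, 13.2% fell and 9.25% rose with age, and 9.78% rose and 5.34% fell with nicotinamide. Some small counts below, such as 1 of 10 bipolar markers with nicotinamide, are near those shares. Of 8 tested markers of amacrine and horizontal cells, 7 fell with age in DBA/2J (median log2 fold change −2.43) and 8 rose with nicotinamide (2.71). Their third-stretch medians were −0.91 and 1.40, with none past the threshold. Their summed level over 10 genes was 204 to 1202 with nicotinamide, 43.6 to 519.8 in DBA/2J at 9 months and 133 to 1168 at 4 months, and Lhx1 and Onecut1 among them were at 0 in 22 and 16 libraries. With age, 7 of 7 microglia markers, 4 of 9 Müller glia and astrocyte markers, 3 of 10 rod markers and 1 of 7 endothelial markers rose, and 3 of 10 bipolar, 2 of 8 cone and 2 of 10 ganglion cell markers fell. With nicotinamide, 3 microglia, 3 Müller glia and astrocyte and 2 endothelial markers fell, and 7 of 8 cone, 3 of 11 ganglion cell and 1 of 10 bipolar markers rose. Within the third stretch none of the markers that could be tested passed in either comparison, and microglia markers were too low there to be tested. The summed level of 8 microglia markers at 9 months in DBA/2J was 5.82 to 187 in the second stretch, 0 to 1.32 in the first and 0.844 to 1.55 in the third, against 0.186 to 2.01 at 4 months. The part of these cell types in the channel results was not tested.

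Among the sodium channel pore genes, Scn1a, Scn2a1 and Scn3a, which carry spikes in central neurons, fell with age in DBA/2J and rose with nicotinamide. Scn1a had values of 8.77 to 32.7 (median 19.6) with nicotinamide, 0 to 16.6 (median 2.03) in DBA/2J at 9 months and 0.6295 to 34.7 (median 14.9) at 4 months. In 24 of the 25 libraries of 9 months it lay below the 4-month median, and all 7 nicotinamide libraries lay above the median of 9 months, though the ranges overlapped. Its log2 fold change was −1.89 ± 0.47 (adjusted p 0.00426) with age and 2.53 ± 0.49 (adjusted p 0.000761) with nicotinamide, and −0.10 ± 0.77 and 0.74 ± 0.33 within the third stretch. Scn2a1, the file's symbol for Scn2a, varied less, with 23.9 to 32.7 (median 30.5) with nicotinamide, 6.99 to 29.8 (median 18.01) in DBA/2J at 9 months and 16.6 to 44.7 (median 29.2) at 4 months. It changed by −0.66 ± 0.18 (adjusted p 0.00884) with age and 0.68 ± 0.20 (adjusted p 0.0208) with nicotinamide, and within the third stretch by −0.14 and 0.17. Scn3a, abundant in the embryonic brain, had 7.04 to 35.7 (median 24.5) with nicotinamide, 0.151 to 17.6 (median 3.53) in DBA/2J at 9 months and 2.896 to 33.1 (median 14.3) at 4 months. Its log2 fold changes were −1.56 ± 0.43 (adjusted p 0.00946) and 2.22 ± 0.48 (adjusted p 0.0021), and −0.37 and 1.04 within the third stretch. The ranges of all 3 genes overlapped between groups, and the nicotinamide libraries were mostly above those of 9 months on water.

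Of the other sodium channel pore genes, 4 were tested over all libraries and none passed in either comparison. Scn8a had 98.7 to 128 (median 105) with nicotinamide, 82.1 to 188 (median 115) in DBA/2J at 9 months and 105 to 162 (median 117) at 4 months, with log2 fold changes of −0.07 ± 0.10 and −0.09 ± 0.12. Scn4a, known from skeletal muscle, had 0.11 with age and −0.28 with nicotinamide. Scn9a had 0.28 and −0.31. Both had the opposite signs within the third stretch, with −0.45 and 0.27 for Scn4a and −0.41 and 0.38 for Scn9a. Scn7a, an atypical member that senses sodium rather than voltage in glia and neurons, had 0.35 with age and −0.55 with nicotinamide over all libraries, but −1.08 and 0.88 within the third stretch, where its sign was the opposite too. Müller glia and astrocyte markers had medians of 0.80 and −1.01 over all libraries and of −1.30 and 0.93 within the third stretch, and their part in the values of Scn7a was not tested. Of the beta subunits, Scn2b had 5.96 to 23.3 (median 12.2) with nicotinamide, 0 to 19.96 (median 4.71) in DBA/2J at 9 months and 3.78 to 20.3 (median 12.7) at 4 months. It fell with age by 1.40 ± 0.37 (adjusted p 0.00569) on the log2 scale and rose by 1.47 ± 0.42 (adjusted p 0.0163) with nicotinamide, and had −0.72 and 0.79 within the third stretch. Scn3b had 14.8 to 25.03 (median 22.2) with nicotinamide, 1.68 to 25.5 (median 11.3) in DBA/2J at 9 months and 8.601 to 26.9 (median 16.4) at 4 months, and its changes of −0.64 ± 0.28 (adjusted p 0.0926) and 0.89 ± 0.32 (adjusted p 0.0523) missed the threshold.

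**Figure D3:**
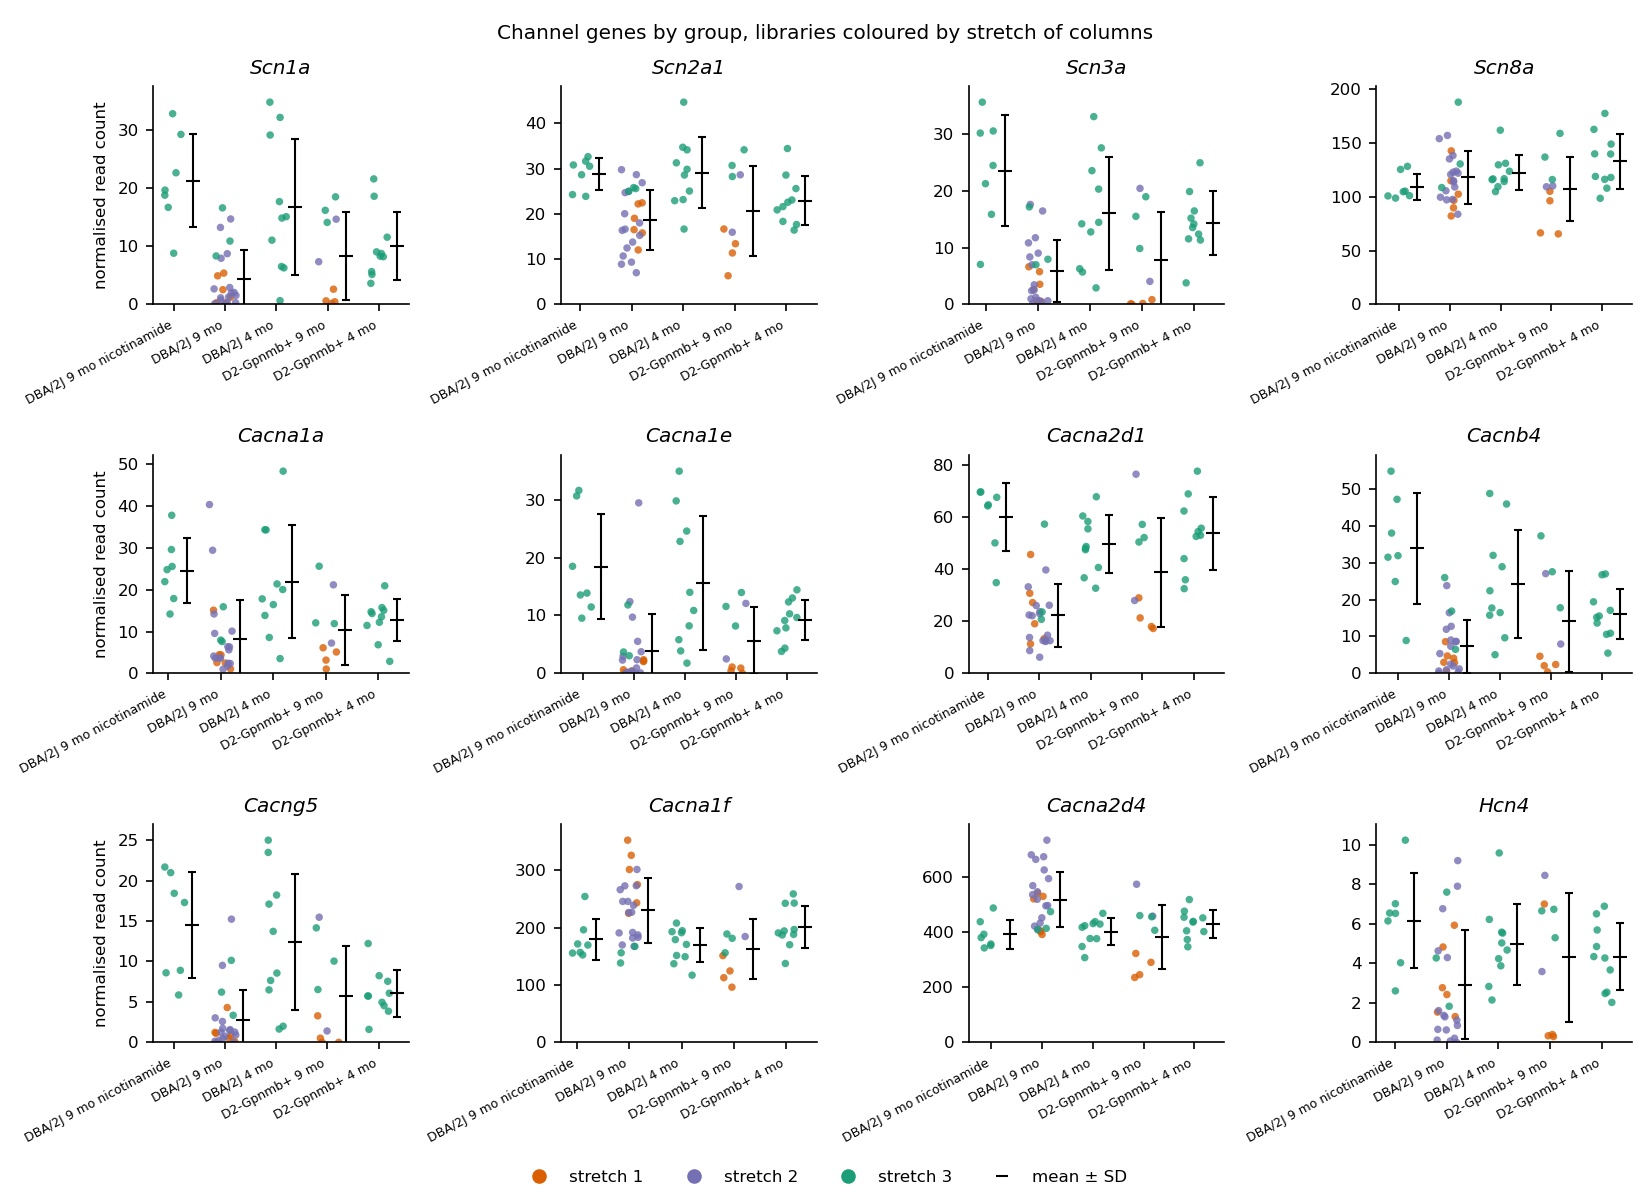
Normalised read count of 12 channel genes in the 5 groups, each point 1 library coloured by its stretch of columns, with mean ± SD beside the points. Scn1a, Scn3a, Cacna1e and Cacnb4 are near 0 in many libraries of the first and second stretch, whereas Cacna2d4 and Scn8a are well above 0 in all libraries.

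Of the calcium channel pore genes, those of the presynaptic P/Q type (Cacna1a), N type (Cacna1b) and R type (Cacna1e) fell with age and rose with nicotinamide. Cacna1a had 14.2 to 37.8 (median 24.8) with nicotinamide, 0.969 to 40.4 (median 4.46) in DBA/2J at 9 months and 3.53 to 48.4 (median 18.9) at 4 months. Its log2 fold change was −1.51 ± 0.39 (adjusted p 0.00514) with age and 1.88 ± 0.41 (adjusted p 0.00221) with nicotinamide, and −0.80 ± 0.58 and 1.17 ± 0.28 (adjusted p 0.0999) within the third stretch. Cacna1e had 9.53 to 31.6 (median 13.9) with nicotinamide, 0 to 29.5 (median 2.14) in DBA/2J at 9 months and 1.76 to 34.95 (median 12.4) at 4 months. Library 9 of DBA/2J, in the second stretch, was the highest at 9 months on water, and the 3 groups overlapped. It changed by −2.11 ± 0.47 (adjusted p 0.00186) and 2.61 ± 0.51 (adjusted p 0.000821), and within the third stretch by −1.02 ± 0.74 and 1.52 ± 0.43. Below its 4-month median lay 24 of the 25 libraries of 9 months. Cacna1b had 6.5 to 13.1 (median 11.6) with nicotinamide, 1.51 to 10.7 (median 5.33) in DBA/2J at 9 months and 4.91 to 18.2 (median 10.2) at 4 months. All 7 nicotinamide libraries were above the 9-month water median in each of these genes. The changes of Cacna1b were −0.76 ± 0.21 (adjusted p 0.0083) and 0.83 ± 0.23 (adjusted p 0.0124), with −0.51 and 0.58 within the third stretch.

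Of the low-voltage-activated T-type genes, Cacna1g fell with age and rose with nicotinamide, Cacna1h rose with nicotinamide and Cacna1i passed in neither by limma. Cacna1g had 14.8 to 43.9 (median 34.9) with nicotinamide, 1.35 to 37.6 (median 12.99) in DBA/2J at 9 months and 13.6 to 54.97 (median 32.5) at 4 months, fell with age (−1.32 ± 0.37, adjusted p 0.00896) and rose with nicotinamide (1.45 ± 0.42, adjusted p 0.0186), with −0.64 and 0.77 in the third stretch. Cacna1h had 62.9 to 109.6 (median 98.3) with nicotinamide, 1.98 to 106 (median 30.9) in DBA/2J at 9 months and 34.4 to 85.4 (median 55.5) at 4 months. It rose with nicotinamide (1.74 ± 0.54, adjusted p 0.0255) while its change with age missed the threshold (−1.09 ± 0.46, adjusted p 0.0794), and in the third stretch it had −0.22 with age and 0.88 with nicotinamide. Cacna1i had log2 fold changes of −0.10 ± 0.16 with age and −0.05 ± 0.18 with nicotinamide, and all groups overlapped. The ranges of Cacna1g and Cacna1h overlapped as well, though every nicotinamide library lay above the 9-month water median in both.

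Among the L-type genes, the photoreceptor gene Cacna1f rose with age in DBA/2J over all libraries, and Cacna1c, of heart and brain, fell. Cacna1f had 153 to 255 (median 169.7) with nicotinamide, 139 to 353 (median 227) in DBA/2J at 9 months and 117 to 208 (median 175) at 4 months, with 15 of 25 libraries of 9 months above every 4-month library. Its log2 fold change was 0.42 ± 0.13 (adjusted p 0.014) with age, but −0.12 ± 0.15 within the third stretch, where the 3 libraries of 9 months had 138, 167 and 156. At 9 months on water Cacna1f averaged 287 ± 48.9 in the first stretch (n = 6), 223 ± 42.3 in the second (n = 16) and 154 ± 14.6 in the third (n = 3), against 169 ± 29.4 at 4 months (n = 10). The 10 rod markers had a median change with age of 1.04 over all libraries and 0.02 within the third stretch, and their part was not tested. Cacna1c had means of 7.06 ± 3.23 with nicotinamide, 4.69 ± 3.54 at 9 months and 9.28 ± 4.196 at 4 months. It fell with age (−1.02 ± 0.31, adjusted p 0.0151) and did not pass with nicotinamide (0.69 ± 0.36, adjusted p 0.182), with −0.79 and 0.46 in the third stretch. Cacna1d, of neurons and hair cells, and Cacna1s, of skeletal muscle, passed in neither, with −0.16 and 0.09 with age and −0.01 and −0.19 with nicotinamide.

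Cacna2d1, an alpha2delta subunit that binds gabapentin, had the smallest adjusted p of all channel genes with age. Its gene spans chr5:15934691-16374511 on the plus strand (GRCm38, GENCODE M21). Its values were 34.9 to 69.8 (median 64.8) with nicotinamide, 6.19 to 57.4 (median 22.2) in DBA/2J at 9 months and 32.7 to 67.9 (median 48.4) at 4 months. At 9 months 24 of 25 libraries lay below the 4-month median and 21 below every 4-month library, while 5 of 7 nicotinamide libraries lay above every 9-month library on water. The log2 fold change was −1.26 ± 0.23 (adjusted p 0.000286) with age and 1.53 ± 0.27 (adjusted p 0.000324) with nicotinamide. Third-stretch values were −0.66 ± 0.26 (adjusted p 0.349) and 0.92 ± 0.30 (adjusted p 0.171), where the 3 DBA/2J libraries of 9 months had 20.7, 57.4 and 23.6, the middle one being library 27. Without library 27 the third-stretch change with age was −1.10 (limma, adjusted p 0.0131) and that with nicotinamide 1.37 (adjusted p 0.0177). In that nicotinamide comparison Cacna1h (1.34), Cacna1a (1.49) and Cacna1e (2.04) passed as well without library 27. Library 27 was the highest of the 3 for each of these genes, so leaving it out enlarges their changes. Without it 255 of all genes passed with age and 378 with nicotinamide, against 36 and 1 with it. This was the only 1 of 13 such fits of age to call a channel gene.

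Cacna2d2, a second gabapentin-binding alpha2delta, had 27.3 to 65.95 (median 50.8) with nicotinamide, 8.22 to 68.8 (median 17.5) in DBA/2J at 9 months and 27.1 to 71.8 (median 39.6) at 4 months. The nicotinamide libraries were all above the 9-month water median, within ranges that overlapped. It fell with age (−0.98 ± 0.26, adjusted p 0.00587) and rose with nicotinamide (1.17 ± 0.29, adjusted p 0.00602), and its third-stretch values of −0.95 and 1.14 were close to those over all libraries. Cacna2d2 too passed there by limma without library 27, again the highest of its group, at −1.38 (adjusted p 0.0482) and 1.58 (adjusted p 0.0134). Cacna2d4, the photoreceptor alpha2delta, moved the other way. It had 342 to 487 (median 379) with nicotinamide, 391 to 733 (median 518) in DBA/2J at 9 months and 307 to 467 (median 419.7) at 4 months, rose with age (0.35 ± 0.10, adjusted p 0.0123) and fell with nicotinamide (−0.38 ± 0.12, adjusted p 0.0273), with 0.11 and −0.15 in the third stretch. Cacna2d3 had 143 to 267 (median 204) with nicotinamide, 81.2 to 761 (median 327) in DBA/2J at 9 months and 225 to 396.2 (median 305) at 4 months and passed in neither comparison by limma (edgeR called it with nicotinamide, at −0.82, adjusted p 0.0497), with the widest spread at 9 months on water.

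Of the cytoplasmic beta subunits, Cacnb4, whose loss causes the lethargic phenotype of mice, had 8.88 to 54.8 (median 31.9) with nicotinamide, 0.0646 to 25.95 (median 5.35) in DBA/2J at 9 months and 5.04 to 48.8 (median 20.04) at 4 months. It fell with age (−1.89 ± 0.45, adjusted p 0.00293) and rose with nicotinamide (2.44 ± 0.51, adjusted p 0.00156), with −0.47 ± 0.59 and 1.02 ± 0.52 within the third stretch. At 9 months 23 of 25 libraries lay below the 4-month median, and all ranges overlapped. Cacnb2, the photoreceptor beta subunit, had 109 to 149.6 (median 128) with nicotinamide, 70.1 to 288 (median 133) in DBA/2J at 9 months and 126 to 178 (median 145) at 4 months, with log2 fold changes of −0.09 and −0.06. Cacnb1, of skeletal muscle, had −0.03 and −0.27, and Cacnb3, of brain, 0.03 and 0.14, and neither passed.

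The gamma genes in the table encode auxiliary subunits of AMPA-type glutamate receptors more than of calcium channels. Cacng5 had 5.85 to 21.7 (median 17.3) with nicotinamide, 0 to 15.2 (median 1.26) in DBA/2J at 9 months and 1.64 to 24.99 (median 11.1) at 4 months. It fell with age (−1.98 ± 0.40, adjusted p 0.000784) and was the channel gene with the smallest adjusted p with nicotinamide (2.42 ± 0.42, adjusted p 0.000307), with −0.57 ± 0.68 and 1.01 ± 0.41 in the third stretch. Cacng2, known as stargazin, had 2.71 to 14.3 (median 8.11) with nicotinamide, 0 to 6.34 (median 1.13) in DBA/2J at 9 months and 1.05 to 11.2 (median 5.44) at 4 months. It changed by −1.10 ± 0.33 (adjusted p 0.0152) with age and 1.83 ± 0.36 (adjusted p 0.000866) with nicotinamide, and by −0.38 and 1.11 in the third stretch. Cacng3 had 5.53 to 23.3 (median 14.5) with nicotinamide, 0 to 26.8 (median 1.69) in DBA/2J at 9 months and 0.881 to 24.7 (median 8.94) at 4 months, with changes of −1.47 ± 0.48 (adjusted p 0.0265) and 2.12 ± 0.52 (adjusted p 0.00538), and of −0.49 and 1.14 in the third stretch. Ranges overlapped for all 3 genes, and every nicotinamide library was above the water median of 9 months. Cacng7 was more even, at 56.1 to 71.7 (median 65.7) with nicotinamide, 19.9 to 89.6 (median 40.2) in DBA/2J at 9 months and 64.3 to 93.4 (median 74.5) at 4 months, and fell with age (−0.81 ± 0.19, adjusted p 0.0027) but did not pass with nicotinamide (0.58 ± 0.23, adjusted p 0.075); its third-stretch changes were −0.12 and −0.10. Cacng4 passed in neither, with 0.34 and −0.50.

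Of the HCN genes, Hcn4, the pacemaker channel of heart that is also found in retinal bipolar cells, had 2.6 to 10.2 (median 6.52) with nicotinamide, 0 to 9.19 (median 1.603) in DBA/2J at 9 months and 2.14 to 9.58 (median 4.85) at 4 months. It passed narrowly in both directions, with −0.88 ± 0.33 (adjusted p 0.0474) with age and 1.14 ± 0.39 (adjusted p 0.0413) with nicotinamide, and its calls held in 12 of 35 and 21 of 32 fits with 1 library left out. In the third stretch Hcn4 had −0.17 and 0.43. Over all libraries Hcn3 had −0.32 and 0.06, and Hcn2, below 1 in 24 libraries, 0.42 and −0.16, with neither past the threshold.

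The strain comparison at 4 months asked how the channel genes differ between DBA/2J and D2-Gpnmb+ at the younger age, with 10 libraries of each, all in the third stretch. Of 36 tested, 1 passed by limma and by edgeR, and it fell, where 0.25% of all genes passed and 0.148% fell. Rescaling to column totals set the median of all genes at 0.24 rather than 0.01. Under it no channel gene passed, 14 had an unadjusted p under 0.05 by limma and 34 of 36 were positive. Of all genes, 0.157% passed under it and 28.7% had such an unadjusted p. Scn2b, a sodium channel beta subunit, had 3.78 to 20.3 (median 12.7) in DBA/2J, against 3.51 to 12.9 (median 5.19) in D2-Gpnmb+. Its ranges overlapped, and its log2 fold change, the largest in size among the channel genes, was 0.88 ± 0.25 (adjusted p 0.129) and did not pass. It passed by limma without DBA/2J library 10 (1.03, adjusted p 0.0285), where 92 of all genes passed against 32 with that library. The median over channel genes was 0.16, against 0.01 over all genes. Of the photoreceptor channel genes, Cacna1f had −0.25, Cacna2d4 −0.10 and Cacnb2 −0.27, none past the threshold. In this comparison 1 of 8 cone markers fell, with a list median of −0.66. Medians of other lists were −0.51 for rods, 0.60 for amacrine and horizontal cells and 0.34 for ganglion cells. Bipolar, Müller glia and astrocyte, and endothelial markers had 0.10, −0.05 and −0.21. No marker of these other lists passed, and the part of these cells was not tested.

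At 9 months no channel gene of 36 passed between DBA/2J and D2-Gpnmb+ over all libraries by limma or edgeR, and 6 had an unadjusted p under 0.05 by limma, where 0.0218% of all genes passed and 13.2% had such an unadjusted p. Those 6 were Cacna2d2 (−0.95 ± 0.26, adjusted p 0.126), Cacna2d1 (−0.77 ± 0.27, adjusted p 0.197) and Cacna1c (−0.65 ± 0.32, adjusted p 0.378) on the lower side and Cacnb2 (0.58 ± 0.21, adjusted p 0.218), Cacna1f (0.52 ± 0.15, adjusted p 0.136) and Cacna2d4 (0.47 ± 0.13, adjusted p 0.131) on the higher side. Without D2-Gpnmb+ library 9, where 55 of all genes passed against 3 with it, Cacna1f (0.62, adjusted p 0.0464) and Cacna2d4 (0.55, adjusted p 0.0499) passed by limma. In the first stretch, with 6 DBA/2J and 4 D2-Gpnmb+ libraries, a comparison chosen after the values were seen, 7 channel genes of 34 rose and 2 fell, where 12.3% of all genes passed, 4.56% higher and 7.69% lower. In the second, with 16 and 2 libraries, none of 36 passed by limma and 2 had an unadjusted p under 0.05, against 0% and 5.42% of all genes. In the third, with 3 and 3, none of 35 passed by limma and 4 had an unadjusted p under 0.05, against 0% and 6.36%.

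The genes that rose in the first stretch included the photoreceptor set. Of 34 channel genes tested there, 8 had groups that did not overlap (23.5%), as had 10.1% of all genes. Cacna1f had 225, 275, 243, 326, 302 and 353 in DBA/2J and 96.2, 113, 151 and 125 in D2-Gpnmb+, without overlap (1.24 ± 0.17, adjusted p 0.000142). Cacna2d4 (0.76 ± 0.16, adjusted p 0.00217) and Cacnb2 (0.85 ± 0.18, adjusted p 0.00294) rose with it. Cacna1h had 106, 99.7, 30.9, 86.4, 55.99 and 72.3 in DBA/2J and 16.7, 26.4, 14.1 and 13.99 in D2-Gpnmb+, without overlap (1.96 ± 0.28, adjusted p 0.000241). Scn3a (1.55 ± 0.44, adjusted p 0.0226) and Cacna1b (1.15 ± 0.33, adjusted p 0.0245) also rose, and Cacng4 (−1.46 ± 0.30, adjusted p 0.00232) and Scn7a (−0.96 ± 0.22, adjusted p 0.00482) fell. Scn7a had 63.6, 45.7, 45.1, 26.6, 61.99 and 47.5 in DBA/2J and 130.4, 89.2, 70.3 and 87.1 in D2-Gpnmb+, where all 4 were above every DBA/2J library. With 1 library left out, Scn3a passed in 3 of the 6 fits that tested it, not without D2-Gpnmb+ library 4, 5 or 6, and Cacna1b in 6 of 10, not without DBA/2J library 2 or 4 or D2-Gpnmb+ library 4 or 6. The other 6 genes named passed in all 10. In the same stretch 8 of 10 rod markers and 8 of 8 cone markers rose and 8 of 9 Müller glia and astrocyte markers fell. The summed Müller glia and astrocyte level was 2971 to 6003 in DBA/2J, against 8124 to 11680.0 in D2-Gpnmb+, and the summed rod level was 6515 to 8873 in DBA/2J, against 606 to 6480.0 in D2-Gpnmb+. The part of these cells was not tested.

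The same genes had other values in the remaining stretches. Cacna1f had −0.03 ± 0.22 in the second and −0.19 ± 0.16 in the third stretch, and Cacna1h −1.75 ± 0.97 and −0.86 ± 0.36. In the third stretch 33 of 35 channel genes were lower in value in DBA/2J, with a median of −0.44 against −0.01 over all genes. Scn2a1 had 25.6, 25.003 and 25.8 in DBA/2J and 30.7, 34.2 and 28.3 in D2-Gpnmb+, without overlap, and Cacna1b had 7.56, 7.81 and 4.96 in DBA/2J, against 11.4, 12.6 and 8.18 in D2-Gpnmb+, all 3 above. These were the 2 of 35 tested channel genes (5.71%) whose groups did not overlap there, where 11.3% of all genes did not overlap, and their adjusted p values were 0.838 and 0.8. Cacna2d1 had 20.7, 57.4 and 23.6 in DBA/2J and 57.3, 52.2 and 50.5 in D2-Gpnmb+, where library 27 of DBA/2J was the highest of its group. Library 27 was also the highest of its group for Cacna1h. Without library 27, where 38 of all genes passed against 0 with it, Cacna1h (−1.32, adjusted p 0.0379) and Cacna2d1 (−1.23, adjusted p 0.0381) passed by limma in this stretch. With all libraries of the third stretch, marker medians were −1.19 for Müller glia and astrocytes, −0.61 for amacrine and horizontal cells and −0.48 for cones. Those of bipolar, endothelial, ganglion cell and rod markers were −0.23, −0.08, −0.04 and 0.12. No tested marker passed. Summed Müller glia and astrocyte levels were 204 to 909 in DBA/2J, against 1067 to 2010 in D2-Gpnmb+. Summed amacrine and horizontal levels were 142 to 378 in DBA/2J, against 227 to 422 in D2-Gpnmb+. The part of these cells was not tested.

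**Figure D4:**
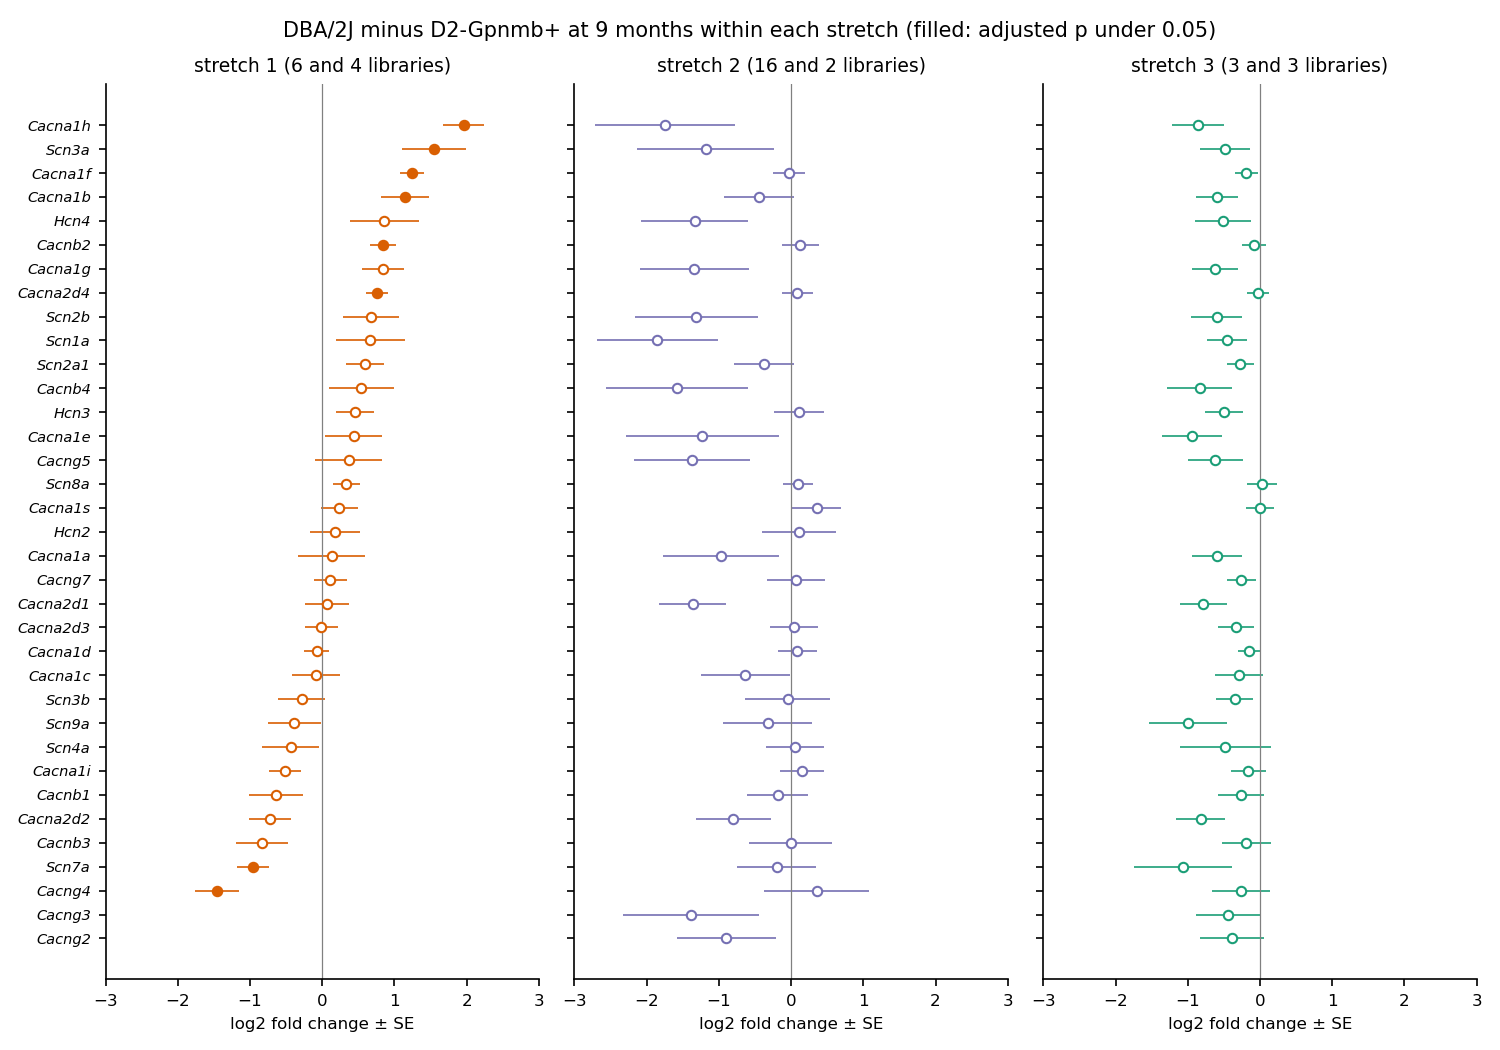
Log2 fold change with SE of the tested channel genes between DBA/2J and D2-Gpnmb+ at 9 months within each of the 3 stretches, filled where the adjusted p in limma is under 0.05. The 8 filled points are all in the first stretch, and Cacna1h is at 1.96 there and at −0.86 in the third.

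In D2-Gpnmb+, no channel gene of 36 passed between 9 and 4 months by limma, 14 had an unadjusted p under 0.05, and edgeR called 4. Of all genes, 0.0232% passed by limma, 30.3% had such an unadjusted p, and edgeR called 11.6%. The genes called by edgeR were Scn9a (1.73), Scn7a (1.57) and Cacng4 (1.77) on the higher side and Cacnb2 (−0.76) on the lower. Scn7a had 13.3 to 130.4 (median 40.01) at 9 months and 9.99 to 29.5 (median 17.4) at 4 months (1.20 ± 0.36, adjusted p 0.0756), and its 4 highest libraries of 9 months were those of the first stretch. Cacnb2 had 38.01 to 165 (median 130.2) at 9 months and 146 to 241 (median 163) at 4 months (−0.93 ± 0.25, adjusted p 0.0741), and the first stretch held its 4 lowest. With 1 library of 9 months left out, limma called 7 channel genes without library 13, 5 without library 14 and 3 without library 9 or 15, with Scn7a, Scn9a and Cacnb2 among them each time. Without library 13, 14, 9 and 15, limma called 2069, 1065, 1010 and 1208 of all genes, where the fit of all libraries called 3 of 12910. The median over channel genes was −0.33, against 0.00 over all genes, and after rescaling to column totals 0.02 against 0.31. The third stretch alone gave none of 37 by limma and 7 with an unadjusted p under 0.05, against 0% and 4.68% of all genes, and the median was 0.20 against 0.01. There 30 of all 37 channel genes had positive values, none past the threshold. Among them were 16 of the 17 genes that fell in DBA/2J, with Cacna1c the exception. Examples were Scn1a (0.80 ± 0.36), Cacnb4 (0.79 ± 0.34) and Scn2b (0.75 ± 0.29).

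Whether the change with age differed between strains was tested as an interaction. No channel gene of 37 passed by limma or edgeR, and 8 had an unadjusted p under 0.05 by limma, where 0.375% of all genes passed and 12.9% had such an unadjusted p. The smallest adjusted p values were those of Cacna1f (0.76 ± 0.20, adjusted p 0.0657) and Cacna2d4 (0.57 ± 0.17, adjusted p 0.0977), whose change with age was more positive in DBA/2J than in D2-Gpnmb+. Cacna2d2 (−1.10 ± 0.36, adjusted p 0.127) and Scn2b (−1.36 ± 0.55, adjusted p 0.246) had the largest negative values among those with an unadjusted p under 0.05. Within the third stretch none of 37 passed by limma and 7 had an unadjusted p under 0.05, against 0.0774% and 8.29% of all genes, and 30 of 37 values were negative. Rescaling to column totals set the median of all genes in the interaction at −0.36 rather than −0.04. Under it none of 37 passed and 13 had an unadjusted p under 0.05 by limma, where 1.52% and 23.6% of all genes did. The calls with age in DBA/2J therefore were not shown to differ from those in D2-Gpnmb+. Without D2-Gpnmb+ library 9, Cacna1f (0.86, adjusted p 0.0222) and Cacna2d4 (0.65, adjusted p 0.0365) passed by limma. Cacna1f also passed without DBA/2J library 26, 27 or 28. These fits called 239, 69, 100 and 85 of all genes, where the fit of all libraries called 53.

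Nicotinamide-treated DBA/2J at 9 months were also set against DBA/2J at 4 months, 7 and 10 libraries that all lie in the third stretch, although treatment and age then differ together. Of 37 channel genes 1 passed by limma and by edgeR, and it fell, where 1.54% of all genes passed and 0.745% fell. Cacna2d3 (chr14:28904943-29721864, minus strand, GRCm38), an alpha2delta subunit of neurons, had 143 to 267 (median 204) with nicotinamide and 225 to 396.2 (median 305) at 4 months. All 7 nicotinamide libraries lay below the 4-month median and 5 below every 4-month library. Its log2 fold change was −0.60 ± 0.15 (adjusted p 0.0462). With 1 library left out the call held in 5 of 17 fits, those without nicotinamide library 1 or 8 or 4-month library 1, 3 or 8, with adjusted p between 0.0178 and 0.122. Cacna1h had 62.9 to 109.6 (median 98.3) with nicotinamide and 34.4 to 85.4 (median 55.5) at 4 months, and missed the threshold (0.65 ± 0.17, adjusted p 0.0538). This comparison shares the 4-month libraries with that of age. Among the genes called there, Scn1a had 0.64 ± 0.53, Cacna2d1 0.27 ± 0.15, Cacnb4 0.55 ± 0.43 and Cacna1a 0.37 ± 0.39, none past the threshold. The median was 0.07 over channel genes and 0.01 over all.

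**Figure D5:**
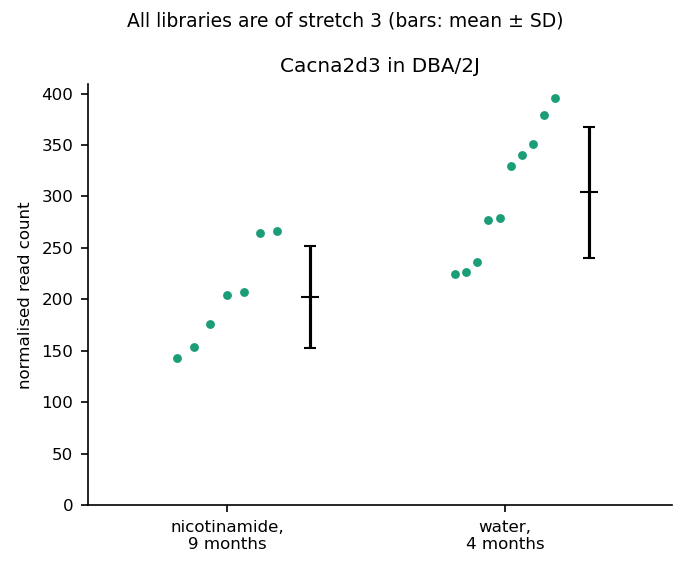
Normalised read count per library, sorted by value, of Cacna2d3 in nicotinamide-treated DBA/2J at 9 months (left) and DBA/2J at 4 months (right), with mean ± SD. Values with nicotinamide end at 267, and the groups overlap.

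A list of 40 genes that act with these channels was also counted, of which 36 were in the table. With age in DBA/2J 7 fell and 1 rose of 35 tested (median −0.30), where 13.2% of all genes fell, and with nicotinamide 6 rose and 1 fell of 35 (median 0.24), where 9.78% of all genes rose. Within the third stretch none of the list passed in either comparison, with medians of −0.08 and 0.14. Fgf14, an intracellular fibroblast growth factor homologue that binds sodium channels, had 4.01 to 32.7 (median 14.5) with nicotinamide, 0 to 17.98 (median 1.67) in DBA/2J at 9 months and 1.39 to 21.6 (median 8.88) at 4 months. It changed by −1.49 ± 0.42 (adjusted p 0.00981) with age and 2.21 ± 0.47 (adjusted p 0.00156) with nicotinamide, and by −0.77 and 1.498 in the third stretch. Its relative Fgf12 changed by −1.09 ± 0.27 (adjusted p 0.0036) and 1.05 ± 0.31 (adjusted p 0.0216), and by −0.36 and 0.32 in the third stretch. Fam155a, an auxiliary subunit of the sodium leak channel, fell with age (−0.83 ± 0.25, adjusted p 0.0159). In the third stretch Fam155a had 0.02, so its sign turned. Cabp2, a calcium-binding regulator of calcium channels (1.34 ± 0.34, adjusted p 0.00706), and Calm2, a calmodulin gene (0.73 ± 0.21, adjusted p 0.0188), rose with nicotinamide, with 0.50 and 0.22 in the third stretch. Reads of Calm2 can be shared with other calmodulin copies, so its value is uncertain. Ank3, the ankyrin that anchors sodium channels at the axon initial segment, had 384 to 642 (median 440.2) with nicotinamide and 525.5 to 732 (median 628) in DBA/2J at 4 months, and was the 1 gene of this list to pass between those groups (−0.39 ± 0.10, adjusted p 0.0408), in 7 of 17 fits with 1 library left out. In the strain, D2-Gpnmb+ age and interaction comparisons none of the list passed.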

How the data were processed

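RNA-seq values of 15149 genes in 61 libraries were used. The deposited table holds a signal per gene, which is each gene's read count divided by a size of the library and set near a per-million scale. No label gives the formula of that scaling. TopHat2 2.0.7, Bowtie2 2.0.6, HTSeq and build mm10 are named in the submitters' processing notes. Another 22 rows with dates for names were left out. Columns carry a group and a number that the labels do not use, so each was assigned to a group and not to a single sample. The steps between low values gave whole reads for 100.0% of values within 0.05 of a read.

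Log2(value + 1) was tested with limma 3.58.1 (trended, robust) in R 4.3.3 on the groups of each comparison, with Benjamini-Hochberg adjustment over all genes kept, and a threshold of 0.05. A gene was kept if the number of libraries at 1 or more was no smaller than the smallest group compared. The pseudocount of 1 understates changes of low genes. As the table holds no counts as deposited, edgeR 4.0.16 (quasi-likelihood) on the recovered reads was an alternative; it called 3160 genes with age in DBA/2J, where limma called 3044, and 2275 with nicotinamide, where limma called 2105. Other alternatives were a pseudocount of 0.25, no filter, rescaling to column totals, the stretch as a covariate, and leaving out each library. Both methods were tested on simulated data. Comparisons of strain at 9 months within the first and second stretch were added after values were seen. The channel genes and lists were chosen with earlier results of these data known. Values over libraries were given for called channel genes (at most the 12 with the smallest adjusted p per comparison), the highest gene of each subunit class and channel genes known from retina, and for the 4 associated genes with the smallest adjusted p. Further genes were described after their values were seen. Some genes enter the fits and counts but are not reported here. Exon lengths and gene positions came from GENCODE M21.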

Additional observations from a re-analysis of the deposited data

Results flagged for a closer look

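Among 140 sets of 7 to 10 libraries, each 1 channel gene in 1 group, 8 held a library that stood far from the others of its group, measured as its gap to the nearest value over the range of the group. Chance flags about 1 in 20 such sets. With nicotinamide, Cacna1f was 254.5 in library 1, where the next highest was 196.3. In DBA/2J at 4 months, library 8 was highest for Cacnb2 (177.6, next 153.0) and for Scn8a (161.8, next 131.1), and library 3 was lowest for Scn4a (3.814, next 9.147). In D2-Gpnmb+ at 9 months, Cacna1c was 12.73 in library 4 (next 7.882) and Cacng3 was 22.09 in library 8 (next 9.834). In D2-Gpnmb+ at 4 months, Cacna2d3 was 148.5 in library 4, where the next lowest was 244.9, and Cacnb1 was 11.35 in library 7 (next 7.328).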

How the results depend on the processing

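Across 12 counts of channel genes called, 30 of 36 values under other settings were within 1.5 times the count reported. Many of these were 0 against 0, in comparisons where no channel gene was called. The third-stretch fits of strain at 9 months, of age within a strain and of nicotinamide were not among the 36. In those fits 19 became 0 with age in DBA/2J and 17 became 0 with nicotinamide. With the stretch as a covariate the counts were 0 with age in DBA/2J and 0 with nicotinamide, where 0.0589% and 0% of all genes passed. The 4-month and nicotinamide libraries lie in the third stretch, so these estimates rest on its 3 DBA/2J libraries of 9 months on water. What lowered the counts was not tested. After rescaling to column totals the counts were 0 between strains at 4 months and 2 for nicotinamide against 4 months, and edgeR gave 4 with age in D2-Gpnmb+; the cause was not tested. Between strains at 9 months the first stretch alone, added after seeing the data, gave 9. With age in DBA/2J the sign turned, with the covariate and within the third stretch alike, for Cacna1f (−0.119) and Fam155a (0.023). Of 45 gene results, 10 lost the threshold under edgeR, 7 after rescaling, 2 with a pseudocount of 0.25 and 0 without the filter.

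With 1 library left out, counts ran from 0 to 2 between strains at 4 months, 0 to 2 between strains at 9 months (0 to 2 in the third stretch and 7 to 10 in the first), 17 to 19 with age in DBA/2J (0 to 2 in the third), 0 to 7 with age in D2-Gpnmb+ (7 without library 13 and 0 to 0 in the third), 13 to 19 with nicotinamide (0 to 5 in the third, 5 without DBA/2J library 27), 0 to 2 for nicotinamide against 4 months and 0 to 2 for age by strain. With age in D2-Gpnmb+ the fit without library 13 called 2069 of all genes. Third-stretch nicotinamide without DBA/2J library 27 called 378. None of 1476 gene values turned sign. No paired analysis was possible because the sample numbers in the labels are not shared between groups.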
